A study of Ovis aries with 23 samples.

Results

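AGER (ENSOARG00000000355) and BFSP2 (ENSOARG00000008699) are 2 of the 25197 Ensembl sheep genes counted in each of 23 pars tuberalis (PT) libraries. They were chosen from their measured counts, which were lower on long photoperiods (LPs) than on short photoperiods (SPs), so that difference is given here as a description, without a test. All samples were PT of neutered male Scottish blackface sheep, 5 taken on SPs and 6 each after 1, 7, or 28 days of LPs. The labels do not say whether the samples of a group came from separate animals.

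AGER encodes RAGE, a cell-surface receptor of the immunoglobulin superfamily that binds advanced glycation end products, several S100 proteins, and the nuclear protein HMGB1 once it is released from cells. RAGE is best known from lung alveolar epithelium and from inflamed tissue, where it signals toward NF-κB. BFSP2 encodes phakinin, an intermediate filament protein that assembles with filensin, the product of BFSP1, into the beaded filaments of lens fiber cells. Neither gene is a classical marker of a pituitary cell type. The PT itself holds thyrotrophs, which respond to melatonin, and folliculostellate cells.

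Total counts per library lay between 1852503 and 4413929, apart from LP day 1 sample 4 with 307952. Values are CPM, a gene's reads scaled to a fixed library total, after TMM normalization over all 23 samples. The TSH subunit genes CGA and TSHB and the granin gene CHGA were present in all groups, and prolactin (PRL), a hormone of the adjacent pars distalis, took 2.35% to 21.0% of the counts. The mean chi-square per gene between LP day 1 samples 3 and 4 was 1.15, where counting noise alone gives a value near 1. This measure grows with depth and sample 4 was shallow, but its pairs with the other 4 LP day 1 samples gave 1.81 to 7.78. They were kept as separate samples, and were also summed as an alternative in the edgeR fits and the ratio. In the correlations they were not summed, and each was left out in turn.

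AGER had 30.7, 25.1, 17.6, 19.4, and 19.2 CPM in SP samples 1 to 5, from 60 to 116 reads. At LP day 1 the lowest, median, and highest of the 6 samples had 10.6, 18.3, and 26.7 CPM, the highest being the shallow sample 4 with 9 reads and an interval of 12.2 to 50.7 CPM (95% exact Poisson, counting error only). The other 5 samples reached 20.6 CPM, below SP samples 1 and 2, and 3 of them lay below the lowest SP sample. At LP day 7 the lowest, median, and highest values were 6.02, 9.52, and 15.1 CPM. At LP day 28 they were 6.29, 10.1, and 10.5 CPM. Every LP day 7 and every LP day 28 sample was below every SP sample. Every LP day 28 sample was also below every LP day 1 sample. Of all genes tested, 0.778% of 15030 had no overlap with SPs and lower values at LP day 7, 0.871% of 14929 did so at LP day 28, and 0.196% of 14820 had this pattern between LP days 1 and 28. Nothing is read from these shares, because the genes were chosen for being lower on LPs.

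BFSP2 had 20.7, 27.4, 23.7, 15.2, and 26.2 CPM in SP samples 1 to 5, from 47 to 93 reads. SP sample 4 was the lowest, and 2 of the 6 LP day 1 samples lay below it. At LP day 1 the lowest, median, and highest values were 11.3, 18.2, and 35.6 CPM. The highest was again that of the shallow sample 4, where 12 reads gave an interval of 18.4 to 62.2 CPM. At LP day 7 the values were 7.12, 9.26, and 16.8 CPM, and 4 of 6 samples lay below every SP sample. LP day 7 samples 1 and 3, with 15.7 and 16.8 CPM, overlapped SP sample 4. At LP day 28 the values were 3.90, 7.11, and 13.3 CPM, and all 6 samples lay below every SP sample.

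**Figure D1:**
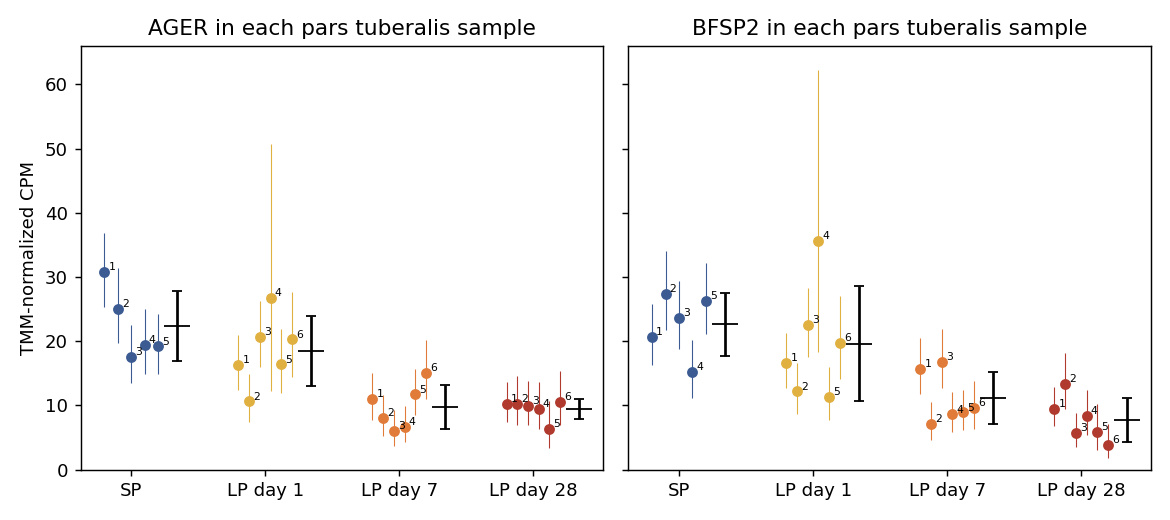
AGER (left) and BFSP2 (right) in TMM-normalized CPM in each PT sample, numbered within its group, with 95% exact Poisson intervals for counting error. Black marks give the group mean ± SD (n = 5 on SPs, n = 6 for each LP day), and all LP day 28 points lie below all SP points for both genes.

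Both genes were lower at LP day 28 than on SPs, and neither was lost. AGER had 22.4 ± 5.44 CPM on SPs (SD, n = 5) and, over LP days 1, 7, and 28 in turn, 18.5 ± 5.41, 9.76 ± 3.47, and 9.44 ± 1.58 CPM (SD, n = 6 each). Its mean at LP day 28 was 42.1% of that on SPs. BFSP2 had 22.6 ± 4.89 CPM on SPs (SD, n = 5) and, in the same order, 19.6 ± 8.92, 11.1 ± 4.07, and 7.77 ± 3.39 CPM (SD, n = 6 each). Its mean at LP day 28 was 34.3% of that on SPs. The shallow LP day 1 sample 4 had 9 reads for AGER and 12 for BFSP2. The fewest in all other samples were 13 for AGER and 10 for BFSP2. In both genes the order of the group means was SPs, LP day 1, LP day 7, and LP day 28. SPs and LP day 1 overlapped in both, as did LP days 7 and 28. In whole tissue, fewer cells that express a gene and less RNA per cell cannot be told apart.

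In edgeR fits over all 5 SP samples, the log2 fold change of AGER from SPs to LP days 1, 7, and 28 was -0.37 ± 0.22, -1.21 ± 0.24, and -1.24 ± 0.20 (± standard error). That of BFSP2 was -0.36 ± 0.25, -1.03 ± 0.23, and -1.52 ± 0.25. These comparisons share the SP samples. At LP day 28, 0.409% of 14929 genes had a lower log2 fold change than AGER and 0.161% a lower one than BFSP2, where the median gene stood at -0.01. SP samples 1 and 4 are the extremes of the SP group for these genes, sample 1 with the most AGER and sample 4 with the least BFSP2. SP samples 2, 3, and 5 are a subset that earlier work on these counts had singled out. Over these alone, the change to LP day 28 on the log2 scale was -1.11 for AGER and -1.71 for BFSP2. At LP day 1 the same subset gave -0.25 and -0.55, which moved the value of BFSP2 by more than 1.5 times. The LP day 1 value of AGER moved as much by single libraries, to -0.23 without SP sample 1 and -0.24 without LP day 1 sample 2.

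From LP day 1 to LP day 7 AGER differed by -0.85 ± 0.25 and BFSP2 by -0.68 ± 0.27 (log2 fold change ± standard error, edgeR). Both LP days entered the choice of the genes through their values against SPs, so these too are descriptions. Without the shallow sample 4 the means at LP day 1 were 16.8 ± 4.04 CPM for AGER and 16.5 ± 4.80 CPM for BFSP2 (SD, n = 5).

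From LP day 7 to LP day 28 the mean of AGER was nearly level and that of BFSP2 was lower. This difference between the genes is described below through their ratio. The log2 fold change was -0.02 ± 0.23 for AGER and -0.49 ± 0.28 for BFSP2 (± standard error). These are descriptions as well. That of AGER was 0.20 with PRL as a covariate, and it lay between -0.13 and 0.13 with 1 sample left out at a time. That of BFSP2 was -0.27 with PRL and -0.26 with FSHB as a covariate. AGER was also the more uniform gene at LP day 28. The variance between its 6 samples was 0.58 times the variance that counting noise gives, against 4.13 times for BFSP2 on the same day and 4.72 times for AGER on SPs.

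**Figure D2:**
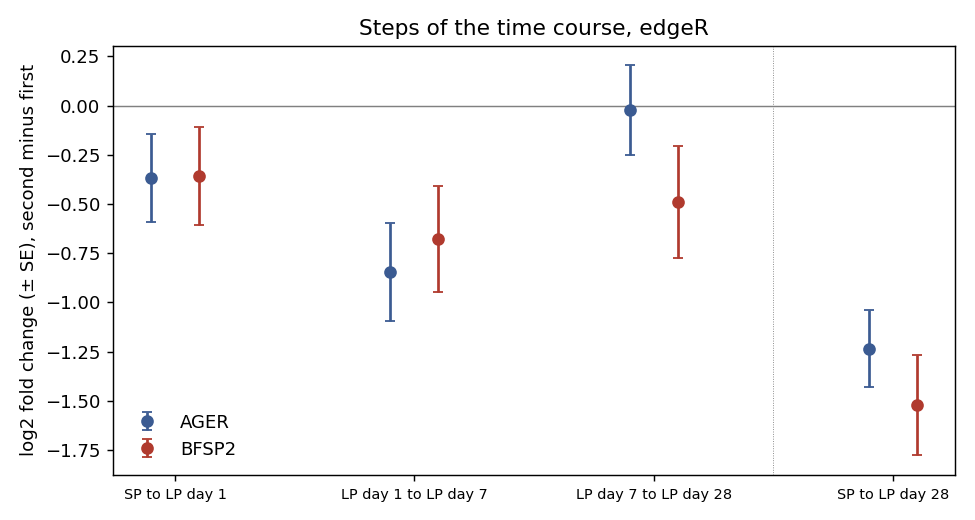
Log2 fold changes of AGER and BFSP2 (points, ± standard error) for successive steps of the time course and, right of the dotted line, from SPs to LP day 28, from edgeR fits of the groups named. AGER shows its lowest successive value, -0.85, from LP day 1 to LP day 7, whereas the BFSP2 values of -0.68 for that step and -0.49 for the next overlap within their standard errors.

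Because both genes are measured in the same library, the ratio of BFSP2 to AGER reads does not depend on normalization. This ratio was examined after the values had been seen. Both genes were chosen for lower values on LPs, which also limits how far their ratio could differ between groups. No conclusion is therefore drawn from the p-values of the ratio. The group medians were 1.09 for SPs and 1.05, 1.08, and 0.908 for the LP days in order. BFSP2 had more reads than AGER in 3 of 5 SP samples and, in order of LP day, in 4, 3, and 1 of 6 samples. The lowest ratio, 0.370, was that of LP day 28 sample 6, with 27 AGER and 10 BFSP2 reads. The highest, 2.80, was that of LP day 7 sample 3, with 20 and 56 reads. The mean log2 ratio changed by -0.39 from SPs to LP day 28 (p = 0.286 in a two-sided exact permutation test, 0.571 after adjustment over 6 pairs of groups). From LP day 7 to LP day 28 it changed by -0.56 (exact permutation p = 0.221, adjusted 0.571), and none of the 6 pairs had an adjusted p below 0.571. Single libraries moved these values. The change from SPs to LP day 28 was -0.18 without LP day 28 sample 6, and that from LP day 7 to LP day 28 was -0.30 without LP day 7 sample 3 and -0.35 without LP day 28 sample 6. Over SP samples 2, 3, and 5 the change from SPs to LP day 28 was -0.71, and no test is given because this subset leaves out the SP samples with the lowest ratios, 0.672 in sample 1 and 0.783 in sample 4.

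**Figure D3:**
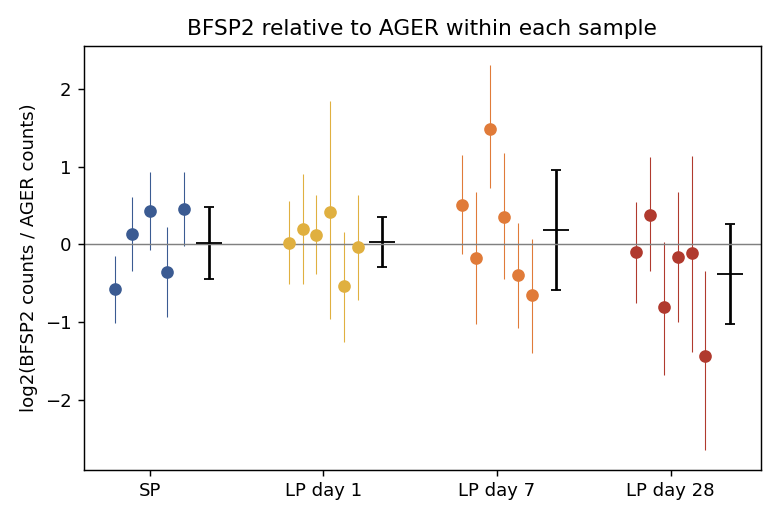
Log2 ratio of BFSP2 to AGER reads within each PT sample, with 95% exact binomial intervals for counting error, and the group mean ± SD in black (n = 5 on SPs, n = 6 for each LP day). The groups overlap, with LP day 7 sample 3 at 2.80 and LP day 28 sample 6 at 0.370 as the extreme ratios.

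Variation among samples of one group was compared through the deviation of each sample's log2 CPM from its group mean. Taking deviations removes the group differences for which the genes were chosen, but not any effect of that choice on their spread within groups. The genes and these tests were chosen with earlier results of the same samples known, so the p-values are not an independent check. All 23 samples entered a family of 13 correlations. AGER deviated together with CHGA, which encodes chromogranin A, the granin of dense-core secretory granules. Pearson's r was 0.63 (permutation p = 0.00223, adjusted 0.0290) and Spearman's rho was 0.61 (permutation p = 0.00229, adjusted 0.0298). The r was 0.86 among the 5 SP samples and 0.86 among LP day 1 samples. It was 0.77 on LP day 7 and -0.0883 on LP day 28. Without the 2 samples farthest from the median of CHGA it was 0.60 (permutation p = 0.00671, adjusted 0.0872). With 1 sample left out at a time it lay between 0.53 and 0.71, and the adjusted permutation p was above the threshold in 10 of 23 cases, up to 0.161 without LP day 1 sample 2. With the deviations of PRL removed from both genes, it was 0.49 and did not pass after adjustment (permutation p = 0.0241, adjusted 0.0723 over the correlations treated in this way). BFSP2 gave an r of 0.07 with CHGA (permutation p = 0.778, adjusted 0.843) and a rho of 0.16 (permutation p = 0.510, adjusted 0.816). Whether the correlations of the genes with CHGA differ from each other was not tested.

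AGER and BFSP2 themselves had an r of 0.29 within groups (permutation p = 0.214, adjusted 0.397) and a rho of 0.35 (permutation p = 0.122, adjusted 0.398). The r fell to 0.12 without the 2 samples farthest from the median of BFSP2 and to 0.01 with PRL deviations removed. It was 0.44 with library size alone (permutation p = 0.0610, adjusted 0.198). With 1 sample left out it lay between 0.15 without LP day 1 sample 4 and 0.46 without LP day 7 sample 3 (permutation p = 0.0441, adjusted 0.143). Among the 6 samples of LP day 1 it was 0.86, and it lay between -0.16 and 0.19 in the other groups. The r with PRL was -0.53 for AGER and -0.54 for BFSP2 (permutation p = 0.0186 and 0.0183), and neither passed after adjustment (0.0808 for both). With library size alone in place of TMM, r was -0.66 and -0.64 (adjusted permutation p = 0.0147 and 0.0153). No correlation with GH1, the growth hormone gene, with the clock gene CRY1, with S100B, or with total counts had an adjusted permutation p below 0.298. The r with total counts, -0.38 for AGER and -0.44 for BFSP2, rested on 2 samples, without which it was 0.01 and 0.03.

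**Figure D4:**
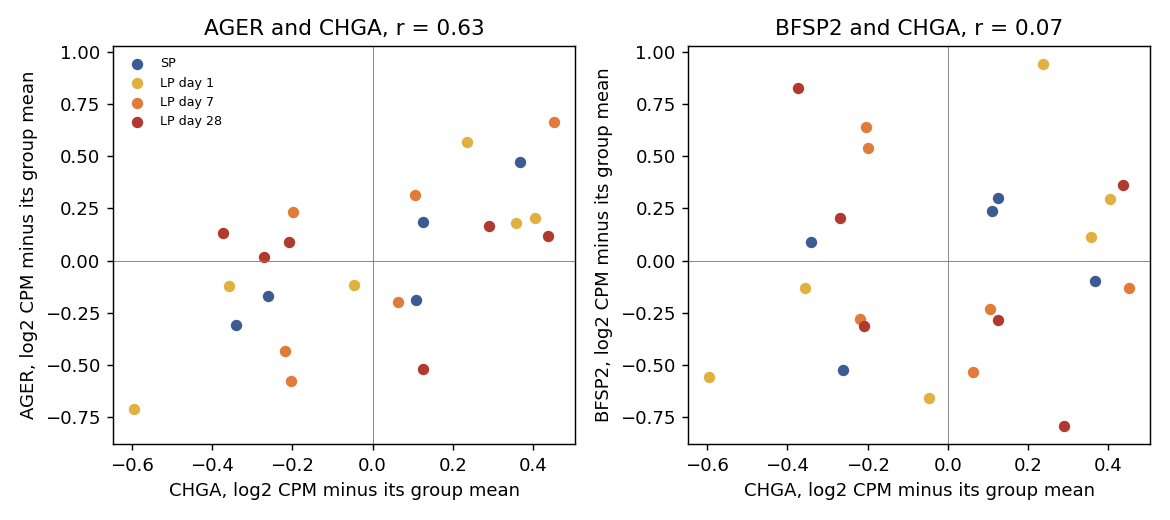
Deviation of AGER (left) and BFSP2 (right) from the group mean against that of CHGA, in log2 CPM, for the 23 PT samples colored by group. AGER rises with CHGA (r = 0.63), and BFSP2 is spread across it (r = 0.07).

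PRL also had a higher mean at LP day 28. It had 72142 ± 37287 CPM on SPs (SD, n = 5) and 153866 ± 70924 CPM at LP day 28 (SD, n = 6), although this difference did not pass the threshold (log2 fold change 1.09, FDR 0.192, edgeR quasi-likelihood test adjusted by Benjamini-Hochberg over all genes tested, with a threshold of 0.05). With PRL as a covariate, the difference on the log2 scale at LP day 28 was -1.16 for AGER and -1.23 for BFSP2 against SPs, and -0.59 and -0.69 against LP day 1, where it was -0.87 and -1.16 without the covariate. The gonadotropin gene FSHB, another pars distalis hormone gene, had 583 ± 173 CPM on SPs (SD, n = 5) and 346 ± 154 CPM at LP day 28 (SD, n = 6; log2 fold change -0.76, FDR 0.158, same edgeR test). With FSHB as a covariate, the values at LP day 28 were -0.998 for AGER and -1.20 for BFSP2. CGA, the alpha subunit made by thyrotrophs and gonadotrophs, had 8384 ± 892 CPM on SPs (SD, n = 5) and 8955 ± 834 CPM at LP day 28 (SD, n = 6; log2 fold change 0.09, FDR 0.694, same edgeR test).

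The summed level of the 6 pars distalis markers PRL, GH1, POU1F1, POMC, LHB, and FSHB ranged from 34994 to 140940 CPM on SPs and from 74590 to 272700 CPM at LP day 28. Most of this sum was PRL, and the other members did not all follow it. At LP day 28 the log2 fold change was -0.39 for LHB, -0.05 for GH1, -0.08 for POMC, and 0.51 for POU1F1. None of these passed the threshold (FDR 0.244, 0.967, 0.940, and 0.447, edgeR). The values of PRL and FSHB are given above. The summed level of the 3 folliculostellate markers S100B, GFAP, and VIM ranged from 887 to 1877 CPM on SPs and from 1023 to 1345 CPM at LP day 28. That of the 5 thyrotroph markers TSHB, CGA, CHGA, EYA3, and MTNR1A ranged from 11396 to 13520 CPM and from 10560 to 13807 CPM. Most of this sum was CGA, and other members differed in opposite directions. CHGA was lower at LP day 28 (log2 fold change -1.69, FDR 1.28e-05, edgeR) and EYA3, a transcriptional coactivator gene, was higher (2.57, FDR 0.0481, edgeR). TSHB stood at 1.75 (FDR 0.0615 in edgeR and 0.0420 in DESeq2), and the melatonin receptor gene MTNR1A at 0.52 (FDR 0.775, edgeR). Of the leukocyte, neuron, and tanycyte lists 1 gene each had an identifier, and of the endothelial list none had. PTPRC, a leukocyte antigen, ranged from 8.80 to 91.7 CPM on SPs and from 21.3 to 87.6 CPM at LP day 28. STMN2, a neuronal gene, ranged from 96.7 to 234 CPM and from 59.99 to 165 CPM, and DIO2, of tanycytes, from 4.51 to 15.6 CPM and from 6.29 to 17.6 CPM. No marker with an identifier was at 0 in an SP or LP day 28 sample. The part of these cells in the fall of AGER and BFSP2 was not tested. The PRL and FSHB covariates cannot give it, because the means of both differed between SPs and LP day 28.

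Odd- and even-numbered libraries of LP days 7 and 28 were compared, and 1.02% of 14890 genes passed the threshold between odd and even numbers. AGER differed by 0.09 on the log2 scale, even minus odd (± 0.23, standard error, FDR 0.945), and BFSP2 by -0.25 (± 0.28, FDR 0.837) in an edgeR fit with LP day in the model. Neither passed. The difference of BFSP2 was -0.51 without LP day 28 sample 2 and -0.12 without LP day 7 sample 3. At LP day 7 BFSP2 had 13.8 ± 4.28 CPM in odd and 8.44 ± 1.25 CPM in even samples, and at LP day 28 it had 6.99 ± 2.15 CPM in odd and 8.55 ± 4.73 CPM in even samples (SD, n = 3 each).

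Few genes of the pathways around RAGE and phakinin could be identified. Of 100 symbols in 7 lists, covering RAGE ligands, RAGE signaling and targets, other receptors and enzymes for glycation products, lens genes, other intermediate filaments, and the genes beside AGER and BFSP2, 10 were paired with an identifier. Pairing came through the study's own tables of regulated genes, so these 10 are not an unselected sample. None of the 10 passed the threshold at any LP day in edgeR or, where it gave an adjusted p, in DESeq2. The nearest were S100A2 and VIM at LP day 7, both lower, with an FDR of 0.0548 and 0.0564 in DESeq2. At an unadjusted p under 0.05 in edgeR there were 1, 4, and 0 of the 10 genes on LP days 1, 7, and 28. Over all genes tested, 0%, 0.266%, and 0.67% passed the threshold on these days in edgeR, and 3.33%, 14.4%, and 13.8% had an unadjusted p under 0.05. The median log2 fold change of the 10 genes at LP day 28 was -0.25, and that of all genes was -0.01.

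Of 15 RAGE ligands, 3 were measured. S100A2 had 13.9 ± 3.27 CPM on SPs (SD, n = 5) and log2 fold changes of -0.80 ± 0.23 (± standard error, FDR 0.134 in edgeR) at LP day 7 and -0.31 at LP day 28. S100A11 had 62.2 ± 7.04 CPM on SPs (SD, n = 5), with -0.25 at LP day 7 and -0.16 at LP day 28. S100B, which also marks folliculostellate cells, had 61.6 ± 33.4 CPM on SPs (SD, n = 5), with 0.11 and -0.31. LGALS3, the galectin that also binds glycation end products, was the only gene of its list of 10, at -0.17 and -0.01. None of the 21 genes of RAGE signaling and its targets had an identifier. Filensin, the filament partner of phakinin, had none either. Of 20 lens genes, the crystallin gene CRYBB1 had 7.81 ± 3.20 CPM on SPs (SD, n = 5), with -0.89 ± 0.33 (± standard error, FDR 0.233 in edgeR) at LP day 7 and -0.60 at LP day 28. PROX1, a transcription factor of lens fiber and other cells, had 1.44 ± 0.942 CPM on SPs (SD, n = 5), near the depth limit of 3 counts. It stood at 0.90 ± 0.45 and 1.06 ± 0.51 (± standard error, FDR 0.379 and 0.376 in edgeR) at LP days 7 and 28. DESeq2 gave it no adjusted p on these days. Of the other intermediate filament genes, VIM had 1002 ± 233 CPM on SPs (SD, n = 5), with -0.49 ± 0.15 (± standard error, FDR 0.150 in edgeR) at LP day 7 and -0.23 at LP day 28. GFAP, with 330 ± 214 CPM, and the neurofilament gene NEFM, with 307 ± 47.6 CPM on SPs (SD, n = 5), stood at 0.10 and 0.23 at LP day 7 and at -0.26 and 0.26 at LP day 28.

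**Figure D5:**
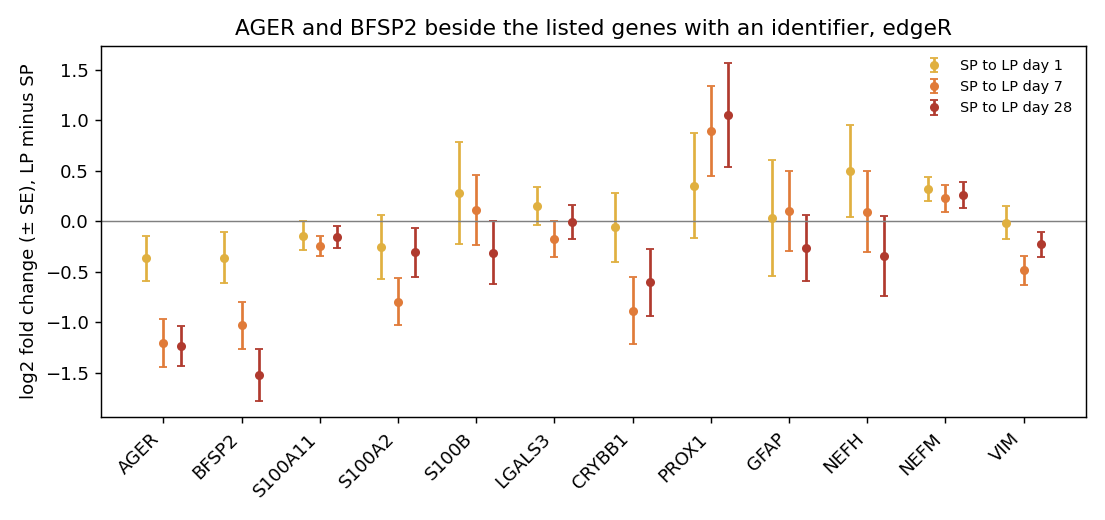
Log2 fold changes against SPs (points, ± standard error) at LP days 1, 7, and 28 for AGER, BFSP2, and the 10 listed genes with an identifier, from edgeR fits. AGER and BFSP2 lie at -1.24 and -1.52 at LP day 28, and none of the 10 other genes passed the FDR threshold of 0.05.

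In the RefSeq assembly ARS-UI_Ramb_v3.0, a later build than the Oar_v3.1 that the submitters' processing notes name, AGER lies between PBX2 and RNF5, and BFSP2 between CDV3 and TMEM108. None of these 4 neighbors was paired with an identifier. No source used here says whether the counting used strand, so reads shared with an overlapping neighbor were not tested.

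Genes with the most similar pattern were ranked by Pearson's r of log2 CPM over all 23 samples, among 869 other genes with a symbol and a mean of at least 5 CPM. These r values include the differences between groups and are descriptions. For AGER the first 5 were CHGA (0.86), KLHDC8B (0.82), FAM171A2 (0.78), the transcription factor gene SOX14 (0.72), and BFSP2 (0.72). Within groups their r with AGER was 0.63, 0.39, 0.55, 0.40, and 0.29. For BFSP2 the first 5 were CHGA (0.74), TNNT1, a troponin gene (0.73), AGER (0.72), FSHB (0.72), and S1PR3, a receptor for sphingosine 1-phosphate (0.69). Within groups their r with BFSP2 was 0.07, 0.53, 0.29, 0.65, and 0.51. Symbols came through the study's tables of regulated genes, so the 869 genes are not an unselected set. Among all 12222 genes of at least 5 CPM, with or without a symbol, CHGA ranked 1 for AGER and 7 for BFSP2. In that wider ranking BFSP2 ranked 22 for AGER, and AGER ranked 10 for BFSP2. CHGA had 3384 ± 684 CPM on SPs (SD, n = 5) and means of 2766, 1534, and 1051 CPM over the LP days in order. Its own log2 fold change at LP day 7 was -1.14 (FDR 0.00215, edgeR).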

How the data were processed

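The authors deposited raw read counts per Ensembl sheep gene for each of 23 PT samples. The study and the submitters' processing notes name Bowtie and HTSeq with build Oar_v3.1, whereas the file headers have the form that featureCounts writes, and which program counted was not settled. Samples were grouped by their titles. Depth limits genes near 3 counts, which equal at most 1.52 CPM outside LP day 1 sample 4.

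Counts were fitted with edgeR 4.0.16 (R 4.3.3), using TMM and quasi-likelihood tests. Genes needed more than 1 CPM in as many samples as the smaller group. The FDR threshold was 0.05. Each standard error is the size of the log2 fold change over the root of its F statistic. Log2 CPM used a prior count of 2. Correlations of deviations from group means were tested with 100000 shuffles within groups, two-sided, in Python 3.11.15 with SciPy 1.17.1. Alternatives included DESeq2 1.42.0. The edgeR and permutation tests were tested on simulated data. P-values measure the spread between samples, which may be technical.

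Symbols came from the study's supplementary tables, which pair 1259 identifiers. Named genes are AGER, BFSP2, up to 3 genes of each list by mean CPM, listed genes past the threshold, the 5 most similar genes with a symbol, cell type markers, and CHGA, PRL, GH1, and CRY1. The 2 genes, the lists, and the tests were chosen with earlier results of these data known. The ratio test was added after seeing the values. The FSHB covariate and the correlations with PRL deviations removed were not planned at the outset either.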

Additional observations from a re-analysis of the deposited data

Results flagged for a closer look

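AGER in LP day 28 sample 5, at 6.29 CPM, lay apart from the other 5 samples of that day. Its gap to the next sample was 0.739 of the whole range, above the critical value of 0.625 for 6 samples. It rests on 13 reads, and its 95% exact Poisson interval of 3.35 to 10.8 CPM covers all 6 samples. In all, 12 sets of values were examined (AGER, BFSP2, and their ratio in 4 groups), and chance flags about 1 in 20 such sets.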

How the results depend on the processing

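The log2 fold changes of AGER and BFSP2 from SPs to LP days 7 and 28 were negative under every alternative run. At LP day 28 they lay between -1.32 and -0.998 for AGER and between -1.71 and -1.20 for BFSP2, or between -1.31 and -1.09 and between -1.74 and -1.39 when any 1 sample was left out. No listed gene passed the threshold at any LP day. The order of the successive BFSP2 steps turned without LP day 28 sample 2, where that from LP day 7 to LP day 28 was -0.70 against -0.68 from LP day 1 to LP day 7, and without LP day 7 sample 2 (-0.59 against -0.57). Whether sample numbers pair the samples was not settled, and the samples were treated as unpaired. Of 33 same-numbered pairs, 8 had correlated deviations over 0.1 (range -0.24 to 0.37), and differently numbered pairs were not compared. With the replicate block, the values from SPs to LP days 1, 7, and 28 were -0.41, -1.37, and -1.27 for AGER and -0.42, -1.02, and -1.41 for BFSP2, and the change of AGER from LP day 7 to LP day 28 was 0.01. The block changed no other direction or call.

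The correlation of AGER with CHGA was 0.60 without the 2 samples farthest from the median and no longer passed. It lay between 0.53 and 0.71 with each sample left out, and its adjusted permutation p was 0.05 or more in 10 of 23 such cases (0.0507 to 0.161, the highest without LP day 1 sample 2). These were SP samples 1, 3, and 4, LP day 1 samples 1, 2, 5, and 6, and LP day 7 samples 3, 4, and 6. Some correlations changed sign. Without the 2 farthest samples, r with total counts moved from -0.38 to 0.0074 for AGER and from -0.44 to 0.0324 for BFSP2. In that setting it was 0.0855 for BFSP2 with GH1 and 0.37 for BFSP2 with S100B. The r of BFSP2 with CHGA was -0.29 with PRL removed. With each sample left out, r lay between -0.06998 and 0.14 for AGER with CRY1, -0.0617 and 0.21 for BFSP2 with CHGA, and -0.14 and 0.18 for BFSP2 with S100B. The odd to even difference lay between -0.0826 and 0.20 for AGER and between -0.51 and -0.12 for BFSP2. The log2 ratio change from SPs to LP day 1 was -0.31 over SP samples 2, 3, and 5, -0.0547 with LP day 1 samples 3 and 4 summed, and -0.13 to 0.13 with each sample left out. From SPs to LP day 7 it was -0.15 over that subset and -0.0874 to 0.34 left out, and from LP day 1 to LP day 7 -0.10 to 0.33. To LP day 28 it was -0.54 to -0.18 from SPs and -0.73 to -0.30 from LP day 7, left out. The causes were not tested. With 9 to 116 reads per sample, counting error limits both genes.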
